A study of Mus musculus with 12 samples.

Results

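The comparison described here sets splenocytes exposed to both SEMA6A and SEMA3A against splenocytes exposed to neither, on 3 arrays a group, which are 6 of the 12 arrays of the study. Members were the arrays labelled with each coculture, and all 11325 genes that passed a signal filter were described. Splenocytes of DBA/2 mice aged 10 weeks had been kept for 9 days with KLN-205, a mouse squamous carcinoma line, and interleukin-2 was given at 100 units/mL every 3 days. In every group, the control included, the tumour cells carried a knockdown of their own SEMA3A. The control group (knockdown control) had these cells alone. In the group with both factors the knockdown cells also overexpressed SEMA6A, and the medium received SEMA3A as purified protein (10 µg/mL). The remaining 6 arrays held SEMA6A overexpression alone (3 arrays) and added SEMA3A alone (3 arrays); they entered the estimate of spread and are otherwise given only as values beside the comparison. The labels leave out whether the tumour lines were single clones, how tumour cells were kept out of the RNA, and whether replicate arrays stand for separate animals or cultures. The p-values therefore measure only the spread between these arrays, which may be technical.

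Semaphorins are secreted or membrane-bound guidance proteins, first known from growing axons and also used between immune cells. SEMA3A is secreted and binds neuropilin-1 together with a class A plexin, and SEMA6A is a transmembrane protein that binds class A plexins directly. Plexins act inside the cell on small GTPases, Rap among them, and so on the cytoskeleton, and in T cells SEMA3A is known to restrain activation. The design asks what the pair of ligands does to the RNA of the splenocytes after a long coculture with interleukin-2.

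Markers of cytotoxic T cells gave clear signals on all 6 arrays. Cd8a, the CD8 coreceptor chain, had signals of 3418, 3592 and 2333 on the control arrays and 3477, 3039 and 3881 on the arrays with both factors, and Cd3e, part of the T cell receptor complex, lay between 4039 and 4872 on all 6. The signal is the deposited intensity of a probe set. Gzmb, granzyme B of the cytotoxic granules, ran from 38147 to 47885 in the controls and from 38556 to 45605 with both factors. The 7 CD8 T cell markers tested had a median log2 difference of -0.01 between the groups. The filter was passed by 7 of 7 CD8 T cell markers on the array, 5 of 6 NK cell, 20 of 27 squamous carcinoma, 6 of 8 platelet and 7 of 12 dendritic cell markers. It was passed by 2 of 6 CD4 and regulatory T cell markers, 5 of 13 for B and plasma cells, 7 of 21 for macrophages and monocytes, 3 of 13 for neutrophils and 1 of 9 for erythroid cells. A pass needed a signal above the array's median on at least 3 of the 12 arrays, single-factor arrays included. Squamous carcinoma markers that did not pass were Krt14, Krt15, Krt17, Trp63, Pkp1, Itgb4 and Cldn7, with mean control signals of 3.69 to 26.3. Epcam, which passed, had a mean control signal of 873. The RNA was bulk, so fewer cells of a type and less RNA per cell cannot be told apart.

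No gene separated the groups after correction for the number of genes tested. Of 11325 genes, 0 (0%) passed an adjusted p of 0.05 in limma with Benjamini-Hochberg adjustment, and the lowest adjusted p was 0.512. At an unadjusted p under 0.05 there were 465 genes (4.11%), 292 higher with both factors (2.58%) and 173 lower (1.53%), where 566 would be counted if no gene differed. On the normalized scale, on which overlap between groups is counted throughout, all 3 arrays with both factors lay above all 3 controls for 968 genes (8.55%) and below them for 739 (6.53%). These shares, and those at an unadjusted p under 0.05, are the background for the counts in every list below. With each array centred on its median in place of quantile normalization, the median of all genes moved to -0.12 on the log2 scale. The 891 genes at an unadjusted p under 0.05 were then 104 higher and 787 lower. With no normalization beyond the deposited scaling, 327 were higher and 173 lower, and the median of all genes was 0.01. The split by direction thus depended on whether arrays were centred on their medians.

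**Figure D1:**
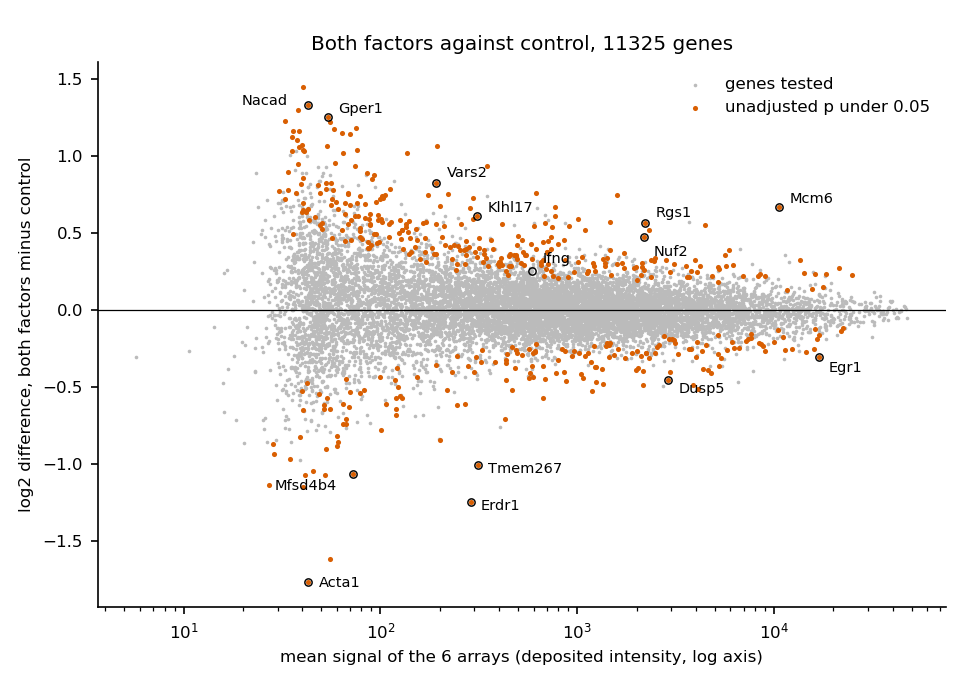
Mean signal of the 6 arrays compared (deposited intensity, log axis) against the log2 difference of both factors minus control for every gene tested; orange points had an unadjusted p under 0.05, and labelled genes are circled. The largest differences lie among dim genes, while Mcm6 stands apart from genes of like signal.

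The size of the differences was bounded more closely than the counts show. The 95% interval of the log2 difference lay within 2-fold in either direction for 10296 genes (90.9%), and its median half-width was 0.33. Only 37 genes (0.327%) differed by more than 2-fold, 27 higher and 10 lower, and 33 of these had a mean signal under 100. Replicates in the 2 groups compared were close to each other: the median SD of log2 signal was 0.12 in the control arrays and 0.12 with both factors, against 0.23 with SEMA6A alone and 0.16 with SEMA3A alone. All 12 arrays shared one estimate of spread. SEMA6A replicate 2 stood apart, with a 3′ to 5′ ratio for Gapdh of 1.22 against 0.767 to 0.818 on the 6 arrays compared, and the lowest array weight, 0.198; without it 767 genes had an unadjusted p under 0.05. SEMA6A replicate 1 and SEMA3A replicate 3 were nearer the controls than the other single-factor arrays in several lists below. Fitted on the 6 arrays of the comparison alone, 1 gene passed adjustment, Mcm6 (limma, adjusted p = 0.0229 after Benjamini-Hochberg). With arrays weighted by their estimated precision 13 passed, of which 12 are described below and the other was Nmral1, an NADPH-sensing protein gene (limma, adjusted p = 0.0482).

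Mcm6 encodes a subunit of the ring-shaped MCM2-7 helicase that is loaded on replication origins and unwinds DNA. Its signal was 8061, 8749 and 7617 on the control arrays and 13411, 12132 and 13597 with both factors. The lowest array with both factors was thus well above the highest control. The log2 difference was 0.67 ± 0.13 (SE, n = 3 and 3 arrays), with a 95% interval of 0.40 to 0.94, and the adjusted p from limma was 0.512. The single-factor arrays covered the range between, 8412 to 12597 with SEMA6A and 11441 to 13476 with SEMA3A, and their own log2 differences from the same controls were 0.35 and 0.61. A further probe set of Mcm6 gave 0.86. Mcm6 passed adjustment with array weights (limma, adjusted p = 0.01) and with SEMA6A replicate 1 left out (limma, adjusted p = 0.0374).

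The other subunits of the helicase were nearer 0. Mcm5 had signals of 16152, 17361 and 16765 in the controls and 17383, 20367 and 16813 with both factors, a log2 difference of 0.08 ± 0.09 (SE). Mcm2 stood at 0.01 ± 0.15, Mcm7 at -0.01 ± 0.08, Mcm4 at -0.08 ± 0.13 and Mcm3 at -0.16 ± 0.11. Mcm3, at 9303, 9559 and 9421 against 8840, 8152 and 9023, and Mcm4 were lower without overlap on the normalized scale. The upper ends of their 95% intervals ran from 0.09 for Mcm3 to 0.33 for Mcm2, all under the 0.40 at the lower end for Mcm6. With SEMA6A alone Mcm2, Mcm3 and Mcm4 were at -0.38, -0.29 and -0.27, and with SEMA3A alone at -0.28, -0.31 and -0.27; these comparisons use the same 3 control arrays. Further probe sets of Mcm3 and Mcm4 reached 0.42 and 0.35 with both factors, so the readings within those genes disagree.

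**Figure D2:**
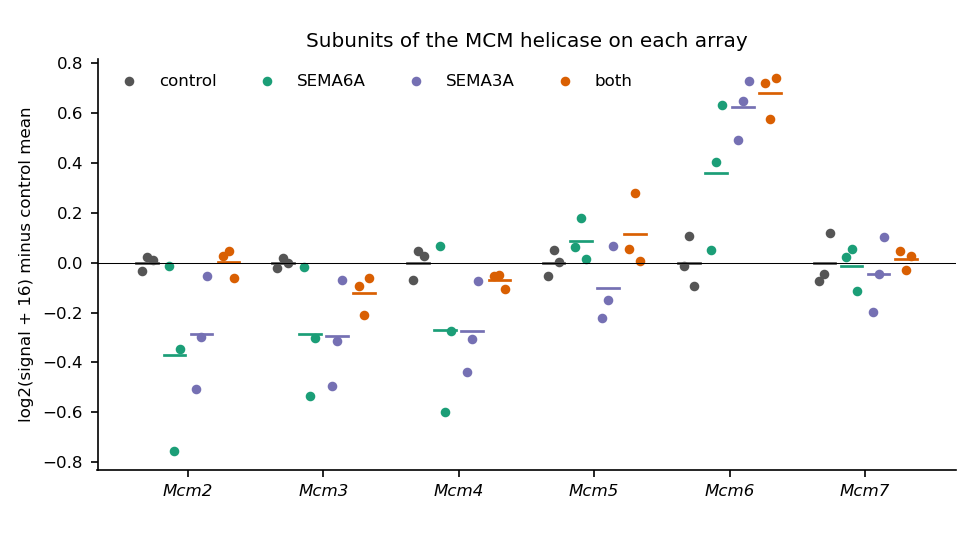
Signal of each MCM2-7 subunit on each of the 12 arrays, as deposited log2(signal + 16) minus the mean of the 3 control arrays; points are arrays, lines group means, and colours the 4 cocultures. All 3 arrays with both factors lie above all 3 controls for Mcm6, whereas for the other subunits the group mean with both factors is nearer 0.

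MCM genes are classical targets of E2F factors, which act at the start of DNA synthesis, so the promoter windows of Mcm6 and Mcm5, a subunit whose groups overlapped, are shown with the E2F-type 8-mers TTTCCCGC, TTTCGCGC, TTTGCCGC and TTTGGCGC (either strand) in capitals. Both are RefSeq windows on GRCm38.p6, 250 bases before to 50 after the annotated start: Mcm6 at chr1:128359656-128359955 on the minus strand and Mcm5 at chr8:75109259-75109558 on the plus strand.
Mcm6: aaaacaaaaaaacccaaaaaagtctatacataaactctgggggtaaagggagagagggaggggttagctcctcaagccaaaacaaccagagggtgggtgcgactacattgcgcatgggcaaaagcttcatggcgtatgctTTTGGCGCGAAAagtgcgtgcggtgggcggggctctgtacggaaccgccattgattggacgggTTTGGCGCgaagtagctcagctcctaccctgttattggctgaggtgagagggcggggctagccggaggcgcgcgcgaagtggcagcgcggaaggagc
Mcm5: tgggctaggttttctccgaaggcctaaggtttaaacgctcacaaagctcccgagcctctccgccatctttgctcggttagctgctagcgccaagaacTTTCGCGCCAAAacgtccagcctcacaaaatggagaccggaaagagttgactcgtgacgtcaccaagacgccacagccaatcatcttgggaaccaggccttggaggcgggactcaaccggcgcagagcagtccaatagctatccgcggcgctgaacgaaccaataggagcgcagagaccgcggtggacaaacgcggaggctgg
The Mcm6 window held 3 matches, 2 of them overlapping on opposite strands, and the Mcm5 window 2, also overlapping. Mcm3 and the first Mcm7 window held 2 each, the Mcm2 window and a second Mcm7 window 0, and Mcm4 was not in the table. At least 1 match was in 2.26% of all 32851 windows and 4.04% of the 11766 windows of tested genes. A match describes letters in the window and is not a measured binding site, and matches were in windows of subunits with unlike log2 differences.

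Genes of DNA replication lay on both sides of 0. Of 53 tested, 23 were above 0 and 30 below, 1 in each direction had an unadjusted p under 0.05, and the median was -0.02 against 0.01 for all genes. Without overlap, 6 of the 53 were higher and 10 lower, where 8.55% and 6.53% of all genes were. The member on the low side was Rfc2, a subunit of the clamp loader that places PCNA on DNA, with signals of 2520, 2170 and 2946 in the controls and 1917, 1969 and 1484 with both factors (log2 difference -0.49 ± 0.15, SE). The groups did not overlap for Rfc2, its adjusted p in limma was 1, and 1 of its 3 probe sets was above 0.

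Mitosis genes had 2 members on the high side. Nuf2, which ties kinetochores to microtubules, was at 1617, 2143 and 1722 in the controls and 2330, 2635 and 2571 with both factors. The log2 difference was 0.47 ± 0.11 (SE), with adjusted p = 0.793 in limma and 0.0482 with array weights. Kif2c, a kinesin that removes tubulin from microtubule ends, was at 0.33 ± 0.12, with probe sets down to -0.18. Of 44 mitosis genes tested, 23 were above 0, and the median was 0.02. All arrays lay above the controls for 5 and below them for 3, against 8.55% and 6.53% of all genes. Lin54, a DNA-binding subunit of the DREAM complex that regulates cell cycle genes, had signals of 629, 688 and 490 against 889, 1021 and 923 (0.67 ± 0.17), and its further probe set was below 0. Among 27 cyclins and inhibitors of the G1 phase, Ccnd1, cyclin D1, was at 0.58 ± 0.20 from dim signals of 67.7 to 80.7 in the controls and 101 to 134 with both factors. E2f5 was at 0.39 ± 0.17, with probe sets down to -0.08. The median of that list was -0.01.

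The gene with the smallest p was Erdr1, annotated by RefSeq as a transcribed pseudogene on the X chromosome. Its signal was 525, 332 and 380 in the controls and 140, 188 and 156 with both factors, so every array with both factors was below every control. The log2 difference was -1.25 ± 0.21 (SE), 95% interval -1.70 to -0.79, with adjusted p = 0.512 in limma. SEMA6A alone gave -0.11 and SEMA3A alone -0.52, the latter with 1 of its arrays at 179 and the others at 338 and 352. Erdr1 passed adjustment with array weights (limma, adjusted p = 0.00854) and when that SEMA3A array was left out (limma, adjusted p = 0.0415). Its probe set is of a type that can also hybridise to related transcripts, so the source of the signal within the family is uncertain.

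Of the further genes at the top of the ranking, 4 with signals of middle height or above are given first, then dim ones. Klhl17, a substrate adaptor for cullin ubiquitin ligases that binds actin, was at 238, 256 and 240 in the controls and 369, 381 and 382 with both factors, 0.61 ± 0.11 (SE). Its arrays within each group differed by little and the single-factor arrays, 263 to 338, lay between. Vars2, the mitochondrial valyl-tRNA synthetase, was at 125, 166 and 112 against 228, 275 and 245 (0.83 ± 0.18), with 0.29 ± 0.20 by its further probe set. Zfp825, a zinc finger protein gene, was at 200, 226 and 224 against 333, 310 and 416 (0.67 ± 0.14), and its further probe set gave 0.70. Drosha, the nuclear enzyme that cuts primary microRNA transcripts, was at 1102, 1515 and 983 against 1689, 2275 and 1979 (0.75 ± 0.18), with 0.01 by its further probe set. None of the 4 passed adjustment in the fit to all arrays; with array weights Klhl17 had an adjusted p of 0.0286 in limma and Vars2, Zfp825 and Drosha 0.0482.

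On the low side, Tmem267, a transmembrane protein gene, had signals of 351, 439 and 483 in the controls and 199, 226 and 172 with both factors (-1.01 ± 0.23, SE). SEMA6A alone gave -0.16 and SEMA3A alone -0.59. Mfsd4b4, which belongs to a family of solute carriers, was dim at 112, 110 and 82.5 against 33.9, 55.1 and 43.9 (-1.06 ± 0.24). Acta1, skeletal muscle actin, was dimmer still: 49.0, 114 and 61.4 against 12, 12 and 9.92 (-1.77 ± 0.37). Mtdh, a protein of the endoplasmic reticulum and nucleus often raised in carcinomas, was bright at 5412, 4452 and 4567 against 3392, 3318 and 3371 (-0.51 ± 0.13), though 2 of its 5 probe sets were above 0. All 4 had groups that did not overlap, none passed adjustment over all arrays, and with array weights limma gave Mtdh an adjusted p of 0.0486 and the others 0.0482.

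**Figure D3:**
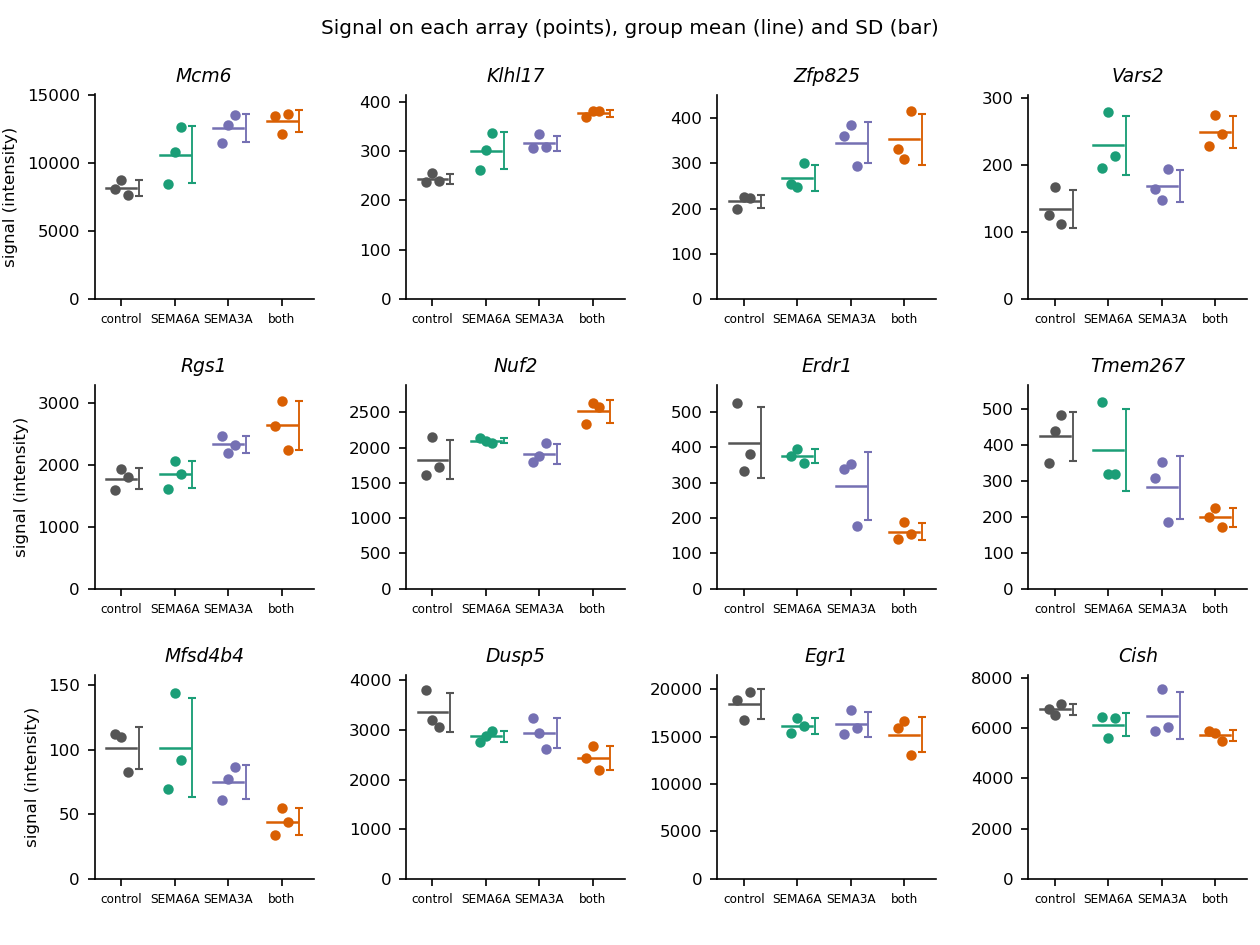
Deposited signal (intensity) of 12 genes on each array in the 4 cocultures; points are arrays, lines group means and bars the SD of 3 arrays. In each of these genes the arrays with both factors lie wholly above or wholly below the control arrays, while the single-factor arrays mostly lie between or overlap one side.

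Rgs1 shortens signals from G protein-coupled receptors, chemokine receptors among them, and so bears on lymphocyte migration. Its signal was 1600, 1927 and 1799 in the controls and 2631, 3035 and 2233 with both factors. The lowest array with both factors exceeded the highest control, the log2 difference was 0.56 ± 0.13 (SE), and the adjusted p in limma was 0.793. SEMA6A alone was at 0.06 and SEMA3A alone, at 2466, 2196 and 2321, at 0.41. With array weights limma gave an adjusted p of 0.0482. Of 20 RGS and G protein genes tested, 15 were above 0, against 53.4% of all genes. All arrays lay above the controls for 3, Rgs1, Rgs2 (0.23 ± 0.18) and Arrb1, a beta-arrestin (0.42 ± 0.50), and for 8.55% of all genes. The list's median of 0.06 was at -0.07 under median centring. Arrb1 was far brighter on the single-factor arrays, up to 1657, than on the 412 reached with both factors, with log2 differences of 1.64 and 1.62.

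Genes that T cell receptor signalling switches on early were mixed. Egr1, an immediate early transcription factor, was at 18836, 16738 and 19756 in the controls and 15950, 16614 and 13117 with both factors. The groups were close but did not overlap, and the log2 difference was -0.31 ± 0.09 (SE), with an adjusted p of 0.959 in limma. Ier2, another immediate early gene, was at -0.27 ± 0.10, and Irf4, which scales with receptor signal strength, at -0.26 ± 0.12. Egr3 ran the other way, with 768, 736 and 655 against 821, 1286 and 880 (0.46 ± 0.20), though its further probe set gave 0.01. Of 27 tested, 17 were below 0, and the median was -0.07. Without overlap 3 were lower and 1 higher, against 6.53% and 8.55% of all genes. Fos was at -0.07 ± 0.18, Nr4a1 at 0.00 ± 0.23 and Myc at 0.16 ± 0.17.

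Dusp5, a nuclear phosphatase that switches off ERK, was among the lower genes with bright signals. It was at 3799, 3208 and 3049 in the controls and 2438, 2673 and 2184 with both factors, without overlap. The log2 difference was -0.46 ± 0.12 (SE), adjusted p = 0.948 in limma, and the single-factor values were -0.22 and -0.19. Dusp2, a phosphatase induced in activated T cells, was at -0.26 ± 0.11. The 15 members tested of the list of MAPK phosphatases and feedback genes had 7 above 0 and 8 below, with a median of -0.01.

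Interleukin-2 was in every culture, and its receptor and response genes differed by little. Cish, a SOCS family feedback inhibitor induced by STAT5, was at 6746, 6500 and 6966 in the controls and 5883, 5783 and 5465 with both factors, a log2 difference of -0.25 ± 0.10 (SE) without overlap. Jak1, a kinase bound to the receptor, was at -0.21 ± 0.11, with probe sets from -0.47 to 0.15, and Il2rb, the receptor's beta chain, at 10098, 10661 and 10161 against 9949, 9532 and 9912 (-0.10 ± 0.08). Il2ra, the alpha chain, was at -0.04 ± 0.18. Of 20 tested, 17 were below 0 and 4 lower without overlap (Cish, Jak1, Il2rb and Osm), where 53.4% of all genes were above 0 and 6.53% lower without overlap. In this list 1 had an unadjusted p under 0.05, and 0 passed adjustment in limma. The list median was -0.06 and that of all genes 0.01.

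The genes by which cytotoxic T cells kill did not differ detectably. Gzmb had a log2 difference of -0.05 with a 95% interval of -0.17 to 0.07. Gzma, granzyme A, was at 0.09 with an interval of -0.07 to 0.25. Prf1, perforin, which forms the pores, was at 13773, 13344 and 16135 against 12945, 12424 and 11172, without overlap, and at -0.27 ± 0.16 (SE), while its further probe set gave 0.26. Among 24 granule genes 0 had an unadjusted p under 0.05 in limma, and the median was 0.00 to 2 decimals, on the lower side of 0. Without overlap 1 was higher and 3 lower, where 8.55% and 6.53% of all genes were.

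Cytokine genes are given for both factors and for each factor alone side by side, and all of these differences share the 3 control arrays. Of 11 tested with both factors, 7 were above 0, where 53.4% of all genes were, and the median was 0.04 (-0.10 under median centring). Without overlap 1 was higher, where 8.55% of all genes were. Ifng, interferon gamma, was at 538, 541 and 543 in the controls, 677, 662 and 588 with both factors, 444, 326 and 248 with SEMA6A and 302, 332 and 534 with SEMA3A. The log2 difference was 0.26 ± 0.23 (SE) with both, -0.69 with SEMA6A and -0.52 with SEMA3A. Csf2, encoding GM-CSF, was at 0.20 ± 0.56 with both and at -1.33 and -0.98 with the single factors. Lta, lymphotoxin, was at 0.01 ± 0.38 with both and at -1.03 and -0.88. Other members differed from these: Il10, interleukin-10, was at 0.43 ± 0.32 with both and at 0.69 and 0.50 with the single factors. Csf1, which was dim, was at -0.50 with both, with 0.60 by its further probe set, and at 0.26 and -0.01. The list medians with the single factors were -0.28 and -0.25. The wide errors of Csf2 and Lta come with single-factor arrays that were far apart: Csf2 ran from 135 to 658 with SEMA6A and from 193 to 1134 with SEMA3A, but from 712 to 916 in the controls and 856 to 1027 with both.

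Inhibitory receptors hold back T cell responses, and 3 of them had values well above 0 with the single factors but not with both. Pdcd1, encoding PD-1, was at 238, 348 and 261 in the controls and 369, 272 and 338 with both factors, groups that overlapped (0.23 ± 0.34, SE), and at 1.11 and 0.72 with the single factors. Ctla4 was at 1138, 1169 and 1024 against 1140, 1087 and 1367 (0.13 ± 0.41), with 0.99 and 1.03 for the single factors. Lag3 was at 0.06 ± 0.43, with 1.31 and 1.04. Cd274, encoding PD-L1, was at -0.23 ± 0.13 with both and at -0.29 and -0.32. Of 18 tested, 12 were above 0, where 53.4% of all genes were. In this list 0 had an unadjusted p under 0.05 in limma, where 4.11% of all genes had. Members outside the control range on all 3 arrays numbered 0 in either direction, beside 8.55% higher and 6.53% lower over all genes. The list's summed signal was 18971 to 20248 in the controls, 18190 on SEMA6A replicate 1 and 19570 on SEMA3A replicate 3, and 26308 to 28384 on the other 4 single-factor arrays, so 1 array of each single-factor group was near the controls. Whether the effect of both factors differed from the sum of the single effects was tested for each gene by the interaction term: 0 genes passed adjustment in limma, with a lowest adjusted p of 0.197.

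Glycolysis and hypoxia genes were above 0 for 27 of 35 tested, against 53.4% of all genes. The median log2 difference was 0.13, and 0.46 and 0.44 in the single-factor comparisons with the same controls. The list's summed signal was 195318 to 218232 in the controls and 205895 to 219766 with both factors. It was 223773 on SEMA6A replicate 1 and 227390 on SEMA3A replicate 3, against 273572 to 308400 on the other 4 single-factor arrays. With both factors 0 members had an unadjusted p under 0.05 in limma, where 4.11% of all genes had. Without overlap 2 were higher and 1 lower, where 8.55% and 6.53% of all genes were. Slc2a1, the glucose transporter GLUT1, was at 3784, 4657 and 4235 against 4485, 4253 and 5057 (0.13 ± 0.23, SE), and at 0.67 and 0.57 with the single factors. Pdk1, which restrains entry of pyruvate into mitochondria, was at 0.22 ± 0.22, and Ldha, lactate dehydrogenase A, at -0.00 ± 0.07. Egln1, an oxygen sensor, was at 1732, 1881 and 1644 against 1914, 1938 and 1926 (0.16 ± 0.16), higher on all 3 arrays. With median centring the list's median was 0.00 to 2 decimals, on the lower side of 0.

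Mitochondrial genes held a pair that ran in opposite directions by their brightest probe sets. Cycs, cytochrome c, was at 18286, 21048 and 17973 in the controls and 23550, 24748 and 22739 with both factors, 0.28 ± 0.09 (SE), with -0.12 and -0.19 for the single factors. Cox8a, a subunit of cytochrome c oxidase, was at 8884, 8831 and 9695 against 8187, 7981 and 7979, -0.22 ± 0.06. By these probe sets neither gene had groups that overlapped. A Cox8a probe set nearly as bright, at 7420, 7790 and 7946 against 7719, 7518 and 7763, gave -0.04 ± 0.07, and a dim one gave 0.23. Over 44 oxidative phosphorylation genes the median was 0.01, and 5 were higher and 5 lower without overlap, against 8.55% and 6.53% of all genes. Cpox, a late enzyme of haem synthesis, was at 408, 651 and 347 against 860, 793 and 654 (0.76 ± 0.26), with -0.12 and -0.76 for the single factors, and its further probe set gave -0.44. Gpd2, the mitochondrial glycerol-3-phosphate dehydrogenase, was at 5224, 3883 and 5778 against 3304, 4143 and 3768 (-0.39 ± 0.14), with overlap.

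The receptors of the added ligands were dim and gave wide intervals. Nrp1, which binds SEMA3A, had signals of 89, 102 and 82.4 in the controls and 79.6, 133 and 83.6 with both factors (0.03 ± 0.31, SE). Plxna1 was at 0.16 ± 0.25, Plxna3 at -0.01 ± 0.23 and Plxna4 at 0.17 ± 0.47. Nrp2, Plxna2, Sema3a and Sema6a did not pass the filter and were not among the genes tested. Their mean signals in the controls and with both factors were dim. Plxna2 was at 10.8 against 37.35 (0.865, and 0.04 by the lowest of its 4 probe sets) and Sema6a at 17.0 against 30.85 (0.42). Nrp2 was at 26.4 against 38.8 (0.30) and Sema3a at 24.0 against 25.8 (-0.08). Plxnb3 was at 41.8, 70.9 and 59.6 against 99.8, 165 and 106 (0.86 ± 0.30), with 0.01 by its further probe set, and Plxnb2, another class B plexin, at 67.0, 94.7 and 71.5 against 33.8, 30.0 and 65.4 (-0.82 ± 0.37). Both were without overlap, and limma gave each an adjusted p of 1. Sema4d, a semaphorin of lymphocytes that signals through class B plexins, was at 6867, 6153 and 6381 against 6053, 6127 and 6316 (-0.07 ± 0.10). Of 22 receptors and ligands tested, 13 were above 0 and the median was 0.01.

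Downstream of plexins, Rap1b, a small GTPase on which plexins act, was at 17428, 17052 and 18586 in the controls and 15687, 16835 and 15542 with both factors (-0.16 ± 0.06, SE). The groups did not overlap. The 28 genes tested in this list had 11 above 0 and 17 below, and every member lay within 0.5 of 0 on the log2 scale. Without overlap there were 2 in each direction, beside 8.55% higher and 6.53% lower over all genes.

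Among interferon genes, Eif2ak2, the RNA-sensing kinase PKR, was at 355, 285 and 346 in the controls and 235, 153 and 247 with both factors (-0.61 ± 0.23, SE), without overlap, and at -0.53 and -0.63 with the single factors; 1 of its 3 probe sets was above 0. The rest of the type I interferon list leaned the other way: 22 of 30 tested were above 0, with a median of 0.09, and the median was at -0.06 under median centring. Ifit1, an antiviral RNA-binding protein, was dim at 47.3, 29.9 and 23.3 against 54.4, 61.5 and 48.9 (0.42 ± 0.26), and Xaf1 was at 900, 948 and 779 against 988, 1146 and 1078 (0.31 ± 0.27). For interferon-gamma-induced genes 12 of 19 tested were above 0 with a median of 0.01, and for MHC class I processing 7 of 16 with a median of -0.04.

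Chemokines and their receptors were below 0 for 11 of 16 tested, where 53.4% of all genes were above 0, and the median was -0.21. Of the 16, 1 was lower without overlap, where 6.53% of all genes were. That was Ccr7, the receptor that guides T cells to lymph nodes, at 298, 291 and 335 against 251, 254 and 268 (-0.23 ± 0.41, SE), with -1.18 and -0.95 for the single factors. Ccl5, made by effector T cells, ranged from 972 to 3017 in the controls and from 1194 to 2053 with both factors (-0.20 ± 0.37). Crtam, a receptor of activated cytotoxic cells, was at 733, 420 and 481 against 281, 392 and 273 (-0.71 ± 0.33), without overlap, and at -1.02 and -0.87 with the single factors. Xbp1, a transcription factor of the unfolded protein response and of effector T cells, was at 11450, 13061 and 12309 against 10755, 10619 and 9966 (-0.26 ± 0.11), though its other 3 probe sets were above 0.

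**Figure D4:**
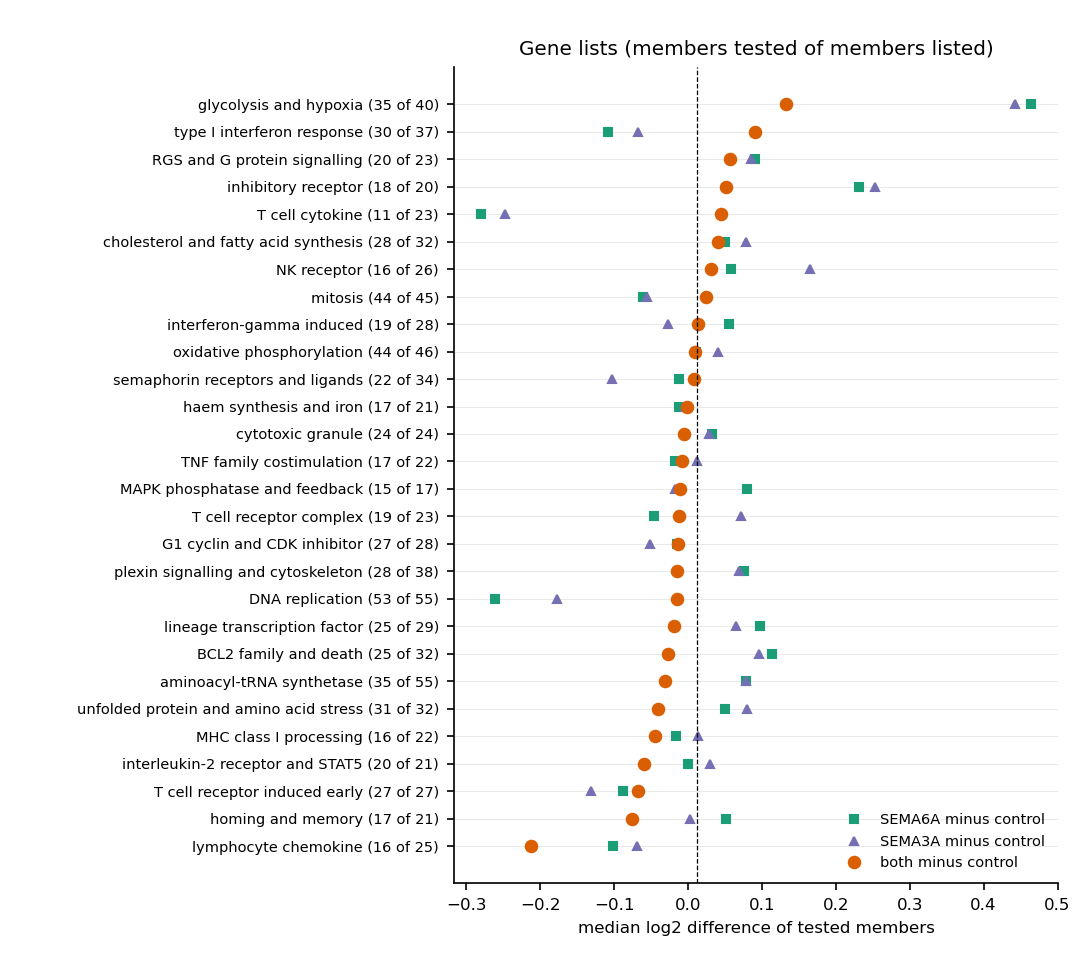
Median log2 difference from control of the tested members of each of the 28 pathway and receptor lists (cell type lists are not shown), with both factors (circles), SEMA6A alone (squares) and SEMA3A alone (triangles); the dashed line is the median of all genes with both factors, and the 3 sets of values share the control arrays. With both factors the medians run from -0.21 for chemokines to 0.13 for glycolysis and hypoxia.

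The medians of these 28 lists lay between -0.21 and 0.13, and that of all genes at 0.01. Centring each array on its median in place of quantile normalization put the 11 list medians that were above 0 in the plot of list medians below 0. The medians already below 0, chemokines among them, were lower still. With no normalization beyond the deposited scaling those 11 stayed above 0, glycolysis and hypoxia at 0.12. The sign of those 11 thus depends on whether arrays are centred on their medians.

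Markers of other cell types were described for what the cultures could also hold. The 12 dendritic cell and MHC class II genes on the array had a summed signal of 914 to 999 on the control arrays and 1131 to 1348 with both factors; 7 of them passed the filter. Cd74, the class II invariant chain, was at 136, 119 and 121 against 179, 169 and 174 (0.41 ± 0.15, SE), without overlap. H2-Ab1, a class II beta chain, was at 288, 321 and 302 against 455, 318 and 380 (0.34 ± 0.14), but its further probe sets ranged down to -0.38, and H2-Aa, the alpha chain, overlapped at 0.55 ± 0.33. Siglech, a lectin of plasmacytoid dendritic cells, passed the filter although its control signals, 6.41 to 29.4, were below the medians of those arrays (0.70 ± 0.33). Of the 5 that did not pass, Xcr1 was at -0.40, Flt3 at 0.12, Ciita at 0.14, Cd209a at 0.83 and Zbtb46 at 0.84.

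Platelet genes also had a higher sum, with dim signals apart from Itga2b. Itga2b, a platelet integrin chain, had mean signals of 143 in the controls and 193 with both factors (0.38 ± 0.14, SE), without overlap. Pf4, platelet factor 4, had the largest difference, at 27.0, 54.8 and 3.73 in the controls and 99.2, 64.2 and 82.2 with both factors (1.22 ± 0.40, SE). The medians of the control arrays were 42.7 to 46.0. Of 6 platelet genes that passed the filter, 5 were above 0, and Treml1 was at -0.32. Gp9 and Vwf, which did not pass, were at -0.165 and -0.082. The summed signal of the 8 platelet genes on the array was 308 to 428 against 468 to 537. Summed signals of B cell markers (503 to 673 against 679 to 789), neutrophil markers (265 to 345 against 382 to 499) and NK cell markers (40756 to 43508 against 43945 to 46994) also did not overlap. Most of the NK cell sum was Gzma, with a mean signal of 33118 in the controls and 36075 with both factors. Of 5 NK cell markers tested, 2 were above 0 and 3 below, with a median of -0.02. Those of macrophages (5582 to 7315 against 5457 to 6325) and of squamous carcinoma (11570 to 12972 against 12088 to 12795) did. As a mean of normalized log2 values over the members that passed the filter, dendritic cell markers (6.69 to 6.73 against 6.97 to 7.15) and macrophage markers (8.29 to 8.4 against 8.45 to 8.54) were higher without overlap, and the fibroblast, endothelium and muscle list, which holds Acta1, was lower (6.5 to 6.73 against 5.99 to 6.25). The platelet, B cell, neutrophil and NK cell lists overlapped on that scale. The median signal of a whole array, which lies among dim probe sets, was 42.7 to 46.0 in the controls and 45.8 to 53.7 with both factors, and its part in the sums of dim genes was not tested.

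**Figure D5:**
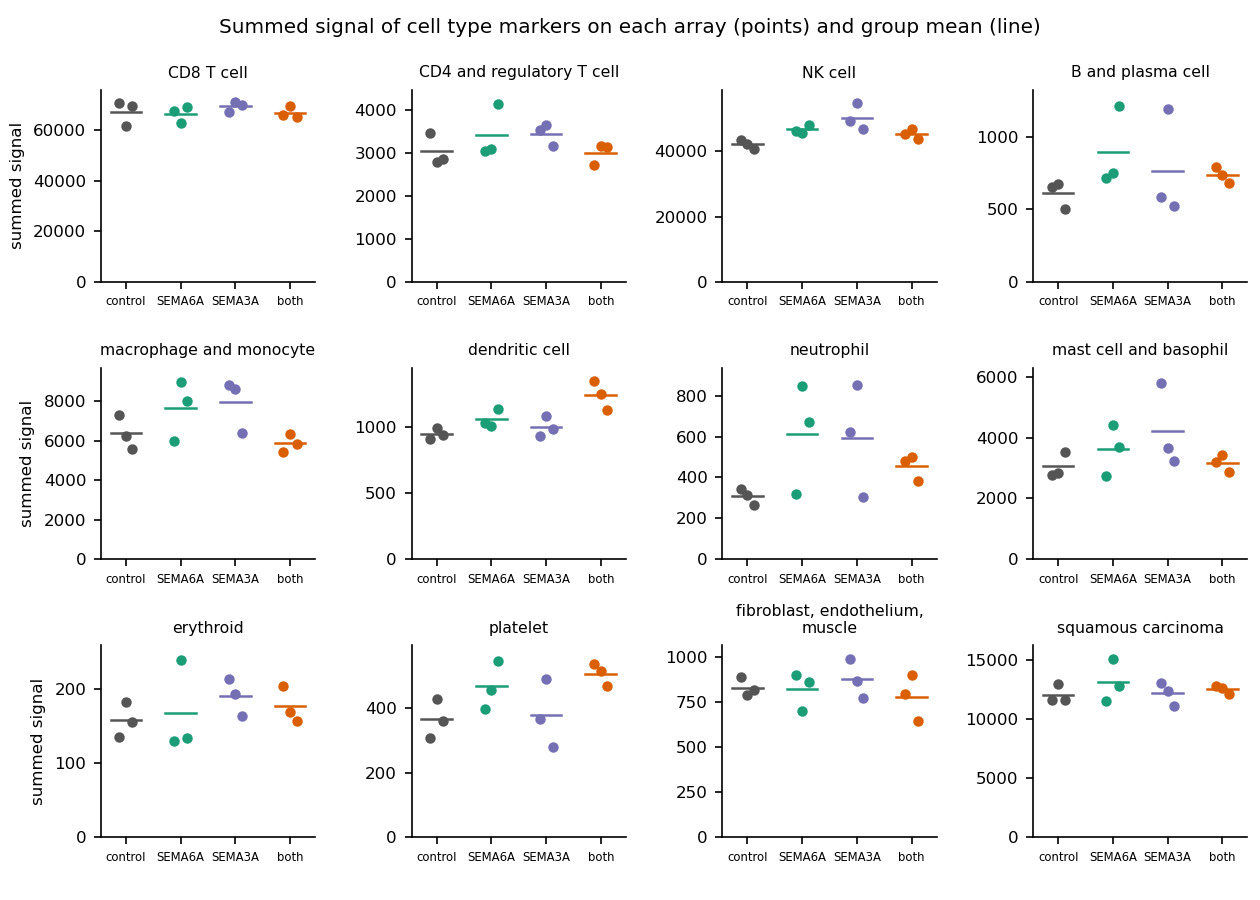
Summed deposited signal (intensity) of the markers of each cell type on each array, with group means as lines, for the 4 cocultures. The sums for dendritic cells, platelets, B cells, neutrophils and NK cells are higher on all 3 arrays with both factors than on all 3 controls, and those for CD8 T cells overlap. The NK cell sum is mostly the signal of Gzma.

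RNA quality measures are given for the 6 arrays compared. The ratio of 3′ to 5′ signal for Gapdh was 0.780 to 0.818 in the controls and 0.767 to 0.793 with both factors. For pyruvate carboxylase it was 7.01 to 8.26 against 4.36 to 5.81, without overlap, with p = 0.1 in a 2-sided exact permutation test, the smallest that 3 arrays against 3 allow, and 0.6 after Benjamini-Hochberg adjustment over 6 measures. The part of this in the gene differences was not tested.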

How the data were processed

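The deposited values are 1 intensity per probe set and array on a linear scale, which the authors computed with MAS5 (version not stated) according to the submitters' processing notes. Per the labels' protocols, 6 µg of total RNA was turned into biotin-labelled cRNA. No scanner file or detection call entered. The trimmed mean was 500 on every array, so each had been scaled by a single factor, which leaves dim signals open to differences in background. Of 45037 probe sets other than controls, 34945 had 1 gene symbol, 932 several and 9160 none in the platform table.

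Intensities were quantile-normalized as log2(signal + 16). Probe sets above their array's median on at least 3 arrays were kept (24366), and the brightest stood for its gene (11325 of 18193). limma 3.58.1 (R 4.3.3; lmFit, eBayes with a trended prior, tested on simulated data) fitted 4 group means to 12 arrays with 8 residual degrees of freedom, and p-values were adjusted by Benjamini-Hochberg over all genes at 0.05. Signals are deposited values, and log2 differences are fitted. On 3 arrays a group, the number of arrays limits the precision. Genes eligible to be named were set by rule. These were the 15 smallest p-values in each direction and, in each direction, the 10 largest non-overlapping differences with a signal of at least 100. Up to 4 members per list and a panel were added. Not all eligible genes are described. Those left out include Fhl3 (1.18) and Cplx2 (1.14), dim in the controls. A few further list members, and Gpd2, were chosen after their values were seen. The comparison's genes and the 40 gene lists were chosen with earlier results of these data known. Alternatives covered scaling, pseudocount, filter, probe set, model and leaving out each array.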

Additional observations from a re-analysis of the deposited data

How the results depend on the processing

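The absence of genes past adjustment held under most settings in limma. The exceptions were the fit to the 6 arrays compared (1 gene, and 1001 of 10725 at an unadjusted p under 0.05), array weights (13 and 1486), and the probe set of largest interquartile range for each gene (1 and 718). That last gene was Ywhab, 2.03 by a dim probe set (adjusted p = 0.038) and 0.01 by its brightest. Counts at an unadjusted p under 0.05 were 891 with median centring, 828 of 18193 without the filter, 248 of 7210 above the 75th percentile, 1457 of 24366 probe sets, and 75 against a 1.2-fold minimum. Without overlap there were 272 higher and 2081 lower genes with median centring, 612 higher above the 75th percentile, and 1935 higher and 2171 lower probe sets. The probe set of largest interquartile range reversed Mapk8ip2 (-0.54), Kansl1 (0.16), Plscr4 (0.57), Cox8a (0.23) and Fars2 (0.15). The cause was not tested. Leaving out 1 array at a time gave 0 to 1 genes past adjustment, 292 to 767 at an unadjusted p under 0.05, and 959 to 1847 higher and 732 to 1598 lower without overlap; with 2 arrays left in a compared group, overlap is rarer by construction. Control replicates 1 (308) and 3 (292) and SEMA6A replicate 2 (767) moved the count at an unadjusted p under 0.05 by over 1.5 times. Replicate numbers did not pair the arrays (correlations of deviations -0.10, -0.13 and -0.04), and with the replicate block 373 genes had an unadjusted p under 0.05 and 0 passed adjustment. The absence of scanner backgrounds limits what dim signals can show.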

Other observations

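Genes with more than 1 probe set gave a second reading of the same RNA, on the same arrays. Of the 465 genes at an unadjusted p under 0.05, 212 had 364 further probe sets past the filter. The direction was the same for 59.3% of these, against 52.4% over all genes, and 6.87% had both the same direction and an unadjusted p under 0.05, against 4.04%. The genes named in this and the next 2 sentences were chosen after their values were seen. Suz12, a core subunit of the Polycomb repressive complex 2, was at -0.31 ± 0.09 (SE) by its brightest probe set and at -0.58 and -0.49 by a pair of others, though 1 of its 6 probe sets was above 0. Gpd2 was below 0 by all 4 of its probe sets, from -0.43 to -0.30, and Tgfbr2, the type 2 receptor for TGF-beta, was at -0.19 ± 0.09 and -0.56. Runx1, a transcription factor of T cell development, was at -1.07 ± 0.32 from signals under 100, but its 4 probe sets reached up to 0.38.

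Outside the lists, bright genes below all controls by their brightest probe set included Clic4, an intracellular chloride channel protein, at 5794, 5506 and 6332 against 4685, 4419 and 4582 (-0.36 ± 0.10, SE). A further Clic4 probe set of like brightness, at 5365, 5294 and 5689 against 5291, 5123 and 5516, gave -0.04 ± 0.09. A dimmer one gave -0.26. Prps1, which makes the activated ribose of nucleotide synthesis, was at 4288, 5176 and 4138 against 3329, 3144 and 3165 (-0.49 ± 0.14), with -0.32 and -0.45 for the single factors. Neither passed adjustment in limma (adjusted p = 0.948 for both).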
